A study of Mus musculus with 56 samples.

Results

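The replication-dependent histone genes are the multicopy genes that supply histone protein for newly made chromatin. They were taken as every symbol of the deposited expression table that begins with Hist1h, Hist2h, Hist3h or Hist4h (no newer symbol of the H1 to H4 kind was matched), and 68 of the 24034 genes used fitted this form. By class, 6 encode the linker histone H1, 18 encode H2A, 19 encode H2B, 12 encode H3 and 13 encode H4. In the GRCm38.p6 annotation, 54 of them lie on chromosome 13, 10 on chromosome 3, 3 on chromosome 11 and 1 on chromosome 6. One member, Hist3h2bb-ps, is annotated as a transcribed pseudogene, and the other 67 are protein coding.

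The study compared mouse liver tumours with healthy liver by bulk RNA sequencing. All 26 bulk libraries came from C57BL/6 mice and carry the label of hydrodynamic tail vein injection, a fast, large-volume infusion that drives plasmids into hepatocytes. Tumours were made with MYC and NICD, the intracellular domain of NOTCH1. They carried either luciferase (luc) or luciferase with model T cell antigens (lucOS). There were 6 healthy livers, 6 luc tumours and 6 lucOS tumours whose titles give no sex, together with 4 luc and 4 lucOS tumours marked as males in their titles. Age is not given in the sources used here. The 8 male tumours all carry the animal prefix AL75, and the other tumours carry AL51 or AL54, so that the male label and the animal series cannot be told apart. Healthy livers carry AL15 or PM5, so that tumour and animal series cannot be told apart either. The titles number each library separately but do not say that each is a separate animal, so p-values measure only the spread between these libraries. Values are TPM (transcript abundance scaled to a fixed library total), which divides reads by gene length before scaling. Depth is unknown, because TPM keeps none. Between 16897 and 19145 genes were above 0 per library.

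Cells make most histone mRNA during S phase, when replicated DNA has to be packed. H2A, H2B, H3 and H4 form the nucleosome core and H1 binds the linker DNA between cores. These mRNAs lack introns and usually end in a stem-loop, bound by SLBP, in place of a poly(A) tail, so a library made from poly(A) RNA captures them poorly. A few members, Hist1h1c, Hist1h2bc and Hist2h2be among them, are also known to make polyadenylated mRNA in differentiated cells. The labels name a TruSeq RNA preparation from total RNA and do not say whether poly(A) RNA was selected, and in the levels below tail status and amount cannot be told apart. In bulk tissue, fewer cells of a type and less RNA per cell cannot be told apart either.

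Promoters of members that the results turn on are shown because members of one class and one cluster differed widely in level. Each runs from 250 bases before the annotated start to 50 after it, is taken from RefSeq on GRCm38.p6, and is printed on the gene's own strand. Capitals mark matches to CCAAT, to TATAAA (a form of the TATA box) and to the octamer ATTTGCAT, or to their reverse complements. Matches are marked anywhere in the window, whatever their distance from the start, so a marked TATAAA need not be a working TATA box. Hist1h2ag (chr13:22042900-22043199, minus strand) was at 0 in every healthy liver, Hist3h2a (chr11:58954435-58954734, plus strand) was the leading H2A gene, and Hist1h4i (chr13:22041313-22041612, minus strand) was the leading H4 gene. Hist1h1c (chr13:23738557-23738856, plus strand) was the leading H1 gene. The Hist1h2ac window (chr13:23683910-23684209, minus strand) reaches into the start of its neighbour Hist1h2bc, the most abundant member.
Hist1h2ag: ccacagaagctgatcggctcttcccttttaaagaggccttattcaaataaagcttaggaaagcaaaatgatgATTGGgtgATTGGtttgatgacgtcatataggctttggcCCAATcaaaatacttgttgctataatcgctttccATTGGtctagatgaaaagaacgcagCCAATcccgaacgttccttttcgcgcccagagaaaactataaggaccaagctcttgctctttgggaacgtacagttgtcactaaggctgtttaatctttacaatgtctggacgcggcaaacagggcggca
Hist3h2a: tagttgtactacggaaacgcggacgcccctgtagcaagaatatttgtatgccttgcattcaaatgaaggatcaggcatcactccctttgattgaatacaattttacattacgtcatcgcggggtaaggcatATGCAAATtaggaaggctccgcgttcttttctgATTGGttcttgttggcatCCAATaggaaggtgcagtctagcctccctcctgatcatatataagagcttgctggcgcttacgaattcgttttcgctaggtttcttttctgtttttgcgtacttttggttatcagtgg
Hist1h4i: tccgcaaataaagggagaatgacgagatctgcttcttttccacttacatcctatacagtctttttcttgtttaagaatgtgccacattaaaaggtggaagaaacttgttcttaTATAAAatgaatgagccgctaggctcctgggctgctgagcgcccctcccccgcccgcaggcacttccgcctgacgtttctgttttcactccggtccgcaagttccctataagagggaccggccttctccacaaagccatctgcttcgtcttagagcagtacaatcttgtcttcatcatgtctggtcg
Hist1h1c: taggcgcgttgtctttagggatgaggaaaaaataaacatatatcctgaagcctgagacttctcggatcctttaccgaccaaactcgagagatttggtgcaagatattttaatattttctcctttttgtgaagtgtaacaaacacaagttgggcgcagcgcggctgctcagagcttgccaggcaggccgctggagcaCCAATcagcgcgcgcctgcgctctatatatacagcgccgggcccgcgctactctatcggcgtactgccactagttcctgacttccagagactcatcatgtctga
Hist1h2ac: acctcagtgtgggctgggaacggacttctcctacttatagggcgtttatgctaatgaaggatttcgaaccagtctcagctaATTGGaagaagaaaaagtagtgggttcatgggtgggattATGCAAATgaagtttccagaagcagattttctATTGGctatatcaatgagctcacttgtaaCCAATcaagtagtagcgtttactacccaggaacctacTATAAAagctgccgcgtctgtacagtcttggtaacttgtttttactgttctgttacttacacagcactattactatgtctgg

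Of the 68 members, 62 have a promoter in the RefSeq table. Matches were searched on both strands and at any place in the window, and overlapping matches of different motifs were each counted. CCAAT, known for binding NF-Y, was in 53 of 62 member promoters (85.5%), against 37.9% of all 27025 promoters of that length. It was in all 6 H1, 18 H2A, 16 H2B and 10 H3 promoters but in 3 of 12 H4 promoters, and Hist1h4i has none. TATAAA was in 56.5% of member promoters against 14.2% of all. The octamer, known for binding OCT1, was in 13 member promoters, 7 of H2A and 6 of H2B genes, against 1.75% of all promoters. Windows of neighbouring H2A and H2B genes can overlap, as for Hist1h2ae and Hist1h2bg. The same site can then be counted for both genes, for CCAAT as well as the octamer. The longer H1 box AAACACAAA was in 3 member promoters (4.84%), 1 each of an H1, an H2A and an H2B gene, against 0.77% of all. Shorter forms of this box were not searched.

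All 68 members were above 0 in at least 1 library, but most were low. Only 54 reached 1 TPM in at least 4 of the 26 libraries, 6 never reached 1 TPM in any library, and 9 reached a mean of 10 TPM in any group. In healthy liver between 10 and 15 members per library reached 1 TPM, against 36 to 52 in luc and 35 to 50 in lucOS tumours. The male luc tumours had 27 to 34 such members and the male lucOS tumours 25 to 30.

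The summed TPM of all members overlapped between healthy liver and tumours, while the H2A, H2B, H3 and H4 shares of it did not. The H1 share overlapped. The sum was 304 ± 43.5 (SD, n = 6) in healthy liver, 374 ± 54.9 (n = 6) in luc and 335 ± 40.8 (n = 6) in lucOS tumours. It was 354 ± 84.5 (n = 4) in male luc and 291 ± 22.7 (n = 4) in male lucOS tumours, and the tumour range of 267 to 473 contained most of the healthy range of 245 to 361. H2B genes held 70.8 to 73.5% of the sum in healthy livers and 19.7 to 35.0% in all tumours. H2A genes held 4.40 to 7.67% in healthy livers and 22.7 to 42.7% in tumours. The H3 share was 0.924 to 1.39% in healthy livers and 1.79 to 7.77% in tumours. The H4 share was 5.3 to 6.44% in healthy livers and 7.23 to 25.9% in tumours. No test was made on these sums.

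**Figure D1:**
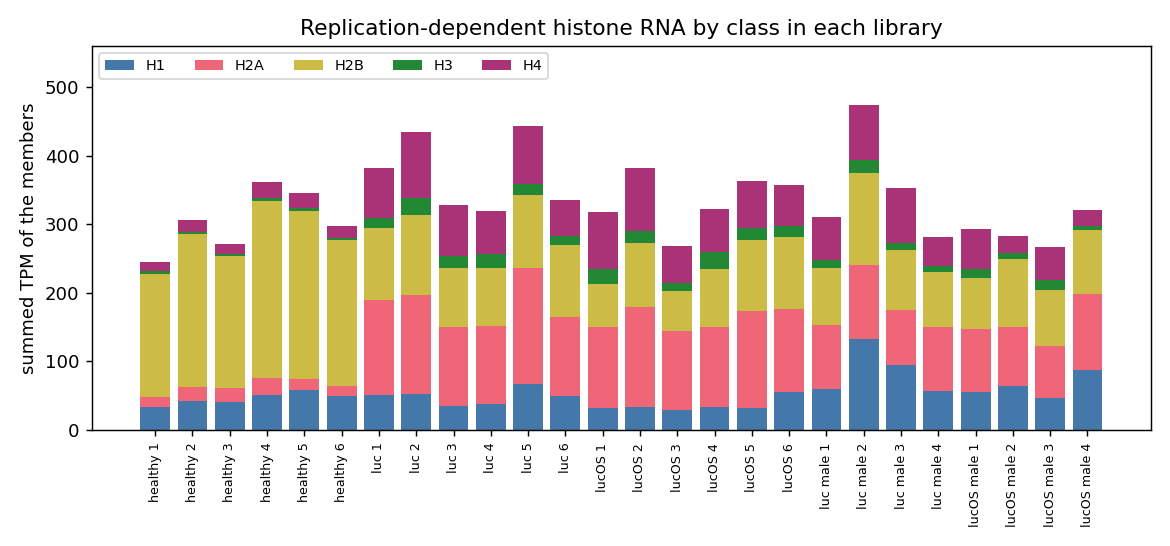
Summed TPM (vertical axis) of the 68 members in each of the 26 libraries (horizontal axis), stacked by histone class. The H2B part is the largest in each of the 6 healthy livers, where the H2B sum was 180 to 258 TPM, and the H2A part is larger in each tumour, at 76.2 to 169 TPM against 14.8 to 23.8 TPM.

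A single gene carried the healthy total. Hist1h2bc, an H2B gene, made up 69.0 to 71.5% of the members' TPM in healthy liver, and with Hist1h1c, an H1 gene, 83.4 to 86.3%. In luc tumours the pair made up 24.7 to 35.6%, in lucOS tumours 19.0 to 32.9%, in male luc tumours 36.1 to 49.3% and in male lucOS tumours 36.8 to 47.1%. Without this pair, the other 66 members summed to 46.7 ± 7.83 TPM (SD, n = 6) in healthy liver. The same sum was 268 ± 45.3 (n = 6) in luc, 253 ± 29.8 (n = 6) in lucOS, 201 ± 29.1 (n = 4) in male luc and 169 ± 14.3 (n = 4) in male lucOS tumours. The lowest tumour value of this sum, 150 TPM, lay above the highest healthy value, 59.9 TPM.

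Some rows are not separate measurements. The TPM of Hist1h2ap was 1.22 times that of Hist1h2ao in each of the 25 libraries where both were above 0, which is the ratio of their annotated lengths, 552 over 452 bases. Hist1h2bq and Hist1h2br had equal values, the ratio of Hist2h2aa2 to Hist2h2aa1 was at its length ratio of 0.933 by the median, and that of Hist2h3c2 to Hist2h3c1 at 1.02. The Hist1h2ao and Hist1h2bq pairs are therefore 1 measurement each. The other pairs departed from the length ratio in some libraries, over ranges of 0.933 to 1.05 and 0.682 to 1.02, so their rows share nearly all but not every read. How reads divide between near-identical copies is uncertain. Taking 1 row of each pair, the H2A sum was 16.1 ± 3.50 (SD, n = 6) in healthy liver and 110 ± 18.7 (n = 6) in luc tumours. Other members are also close copies of each other, so a value given to 1 gene may hold reads of another.

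The first comparison asked how tumours differ from healthy liver. Log2 fold changes are on the log2(TPM + 1) scale, which understates the change of low genes, and a gene is called where limma's test, adjusted by Benjamini-Hochberg over all genes tested, gave an adjusted p under 0.05. Of the 54 members tested, 43 were higher in tumours and 4 lower. Over all 15767 genes tested, 71.8% were called higher and 16.9% lower. The members' share called higher is near that of the whole table, and their share called lower is smaller. The lower members include Hist2h3c1 and Hist2h3c2, whose rows share nearly all reads. The members' median log2 fold change was 0.75, against 1.03 over all genes. In every tumour, males included, 18 of the 68 members lay above all healthy livers and 1 below, against 42.3% and 7.59% of all genes. Those above were 0 of 6 H1, 10 of 18 H2A, 3 of 19 H2B, 4 of 12 H3 and 1 of 13 H4 genes. With the male tumours set aside, 34 of the 68 members lay above and 1 below, against 46.3% and 10.0% of all genes. Only members that passed the filter stand in the limma counts. With no filter, 51 of 68 were higher and 4 lower (59.6% and 13.9% of all 21177 genes), with a median of 0.65 against 0.54.

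The direction of many members depended on the scaling of the libraries. In healthy livers the hepatocyte markers alone held between 131327.1 and 175031.2 TPM, while tumours held 326 to 16678.1 TPM, and all 8 fell in tumours. Under median ratio scaling, which set the median of all genes to 0.08, 32 members were higher and 9 lower. Under quantile normalization, with a median of 0.10, 13 were higher and 16 lower, and 18 of the 47 called members changed sign, 5 of them past the threshold. Hist1h2ag, Hist1h2ao, Hist1h2ap, Hist1h2ak, Hist1h4i and Hist3h2a stayed called higher, and Hist1h2bc called lower, under all 33 of these and other settings run at a pseudocount of 1.

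Hist1h2bc had the largest fall. Its level was 175 to 251 TPM with a median of 213 in healthy liver. In luc tumours it ran from 47.6 to 75 with a median of 68.0, and in lucOS tumours from 37.0 to 69.3 with a median of 53.2. The male luc values were 56.4, 105, 64.4 and 58.3 TPM, and the male lucOS values 55.8, 72.4, 55.8 and 61.5 TPM. All 20 tumours lay below all 6 healthy livers. Hist1h2bc fell by 1.77 (SE 0.13, limma adjusted p = 3.41e-12), and it was the only member whose tumour and healthy values did not overlap in this direction, against 7.59% of all genes. Its annotated span of 8282 bases is far longer than a stem-loop histone gene such as Hist1h2ac, and its TPM rests on the length the authors used.

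Hist1h1c, which encodes the linker histone H1.2 and is the second most abundant member, did not differ past the threshold. Healthy livers ranged from 32.6 to 56.9 TPM with a median of 44.1. Luc tumours ranged from 30.0 to 56.5 with a median of 40.5, and lucOS tumours from 20.9 to 51.1 with a median of 25.4. The male luc values were 55.4, 129, 90.2 and 53.7 TPM and the male lucOS values 53.7, 60.6, 42.3 and 84.8 TPM. The groups overlap, and the log2 fold change was 0.10 (95% interval -0.26 to 0.46, limma adjusted p = 0.609). It was -1.17 under median ratio scaling, -0.56 under quantile normalization and -0.40 without the male tumours, each past the threshold.

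H2A genes had the highest median change of the classes. Of 17 tested, 15 were higher and none lower, with a median of 1.32, while 71.8% of all genes were higher and 16.9% lower. All 20 tumours lay above all 6 healthy livers for 10 of the 18, against 42.3% of all genes. Hist3h2a, the leading H2A gene and 1 of few members on chromosome 11, was at 8.32 to 14.0 TPM with a median of 11.2 in healthy liver. In luc tumours it ran from 34.1 to 54.6 with a median of 42.1, and in lucOS tumours from 22.7 to 40.9 with a median of 28.2. The male luc values were 52, 64.1, 34.7 and 48.7 TPM and the male lucOS values 54.6, 56.1, 45 and 75 TPM. Every tumour was above every healthy liver, and Hist3h2a rose by 1.88 (SE 0.14, limma adjusted p = 5.02e-12).

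A second set of H2A genes was nearly silent in healthy liver. Hist1h2ag was listed at 0 in all 6 healthy livers and at 12.7 to 22.4 TPM in luc and 14.9 to 19.8 TPM in lucOS tumours, so no fold is given (limma adjusted p = 1.38e-17). Hist1h2ak was at 0 to 0.146 TPM in healthy livers, at 6.74 to 15.7 in luc and at 10.4 to 16.5 in lucOS tumours. Hist1h2ao, with its copy Hist1h2ap, was at 0 to 0.157 TPM in healthy livers, at 14.1 to 22.8 in luc and at 16.4 to 21.6 in lucOS tumours. The log2 fold change was 2.55 (SE 0.14) for Hist1h2ak and 3.13 (SE 0.13) for Hist1h2ao, with limma adjusted p of 1.01e-14 and 3.14e-17. Hist1h2af (1.88, SE 0.14), Hist1h2ai (1.76, SE 0.19), Hist1h2ae (1.44, SE 0.15) and Hist1h2an (1.32, SE 0.19) also rose, from healthy means of 0.0267, 0.0555, 0.622 and 0.0146 TPM. The pair Hist2h2aa1 and Hist2h2aa2 did not pass the threshold, and Hist2h2aa1 ran from 2.13 to 3.08 TPM in healthy livers and from 0.960 to 7.38 TPM over the tumours.

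**Figure D2:**
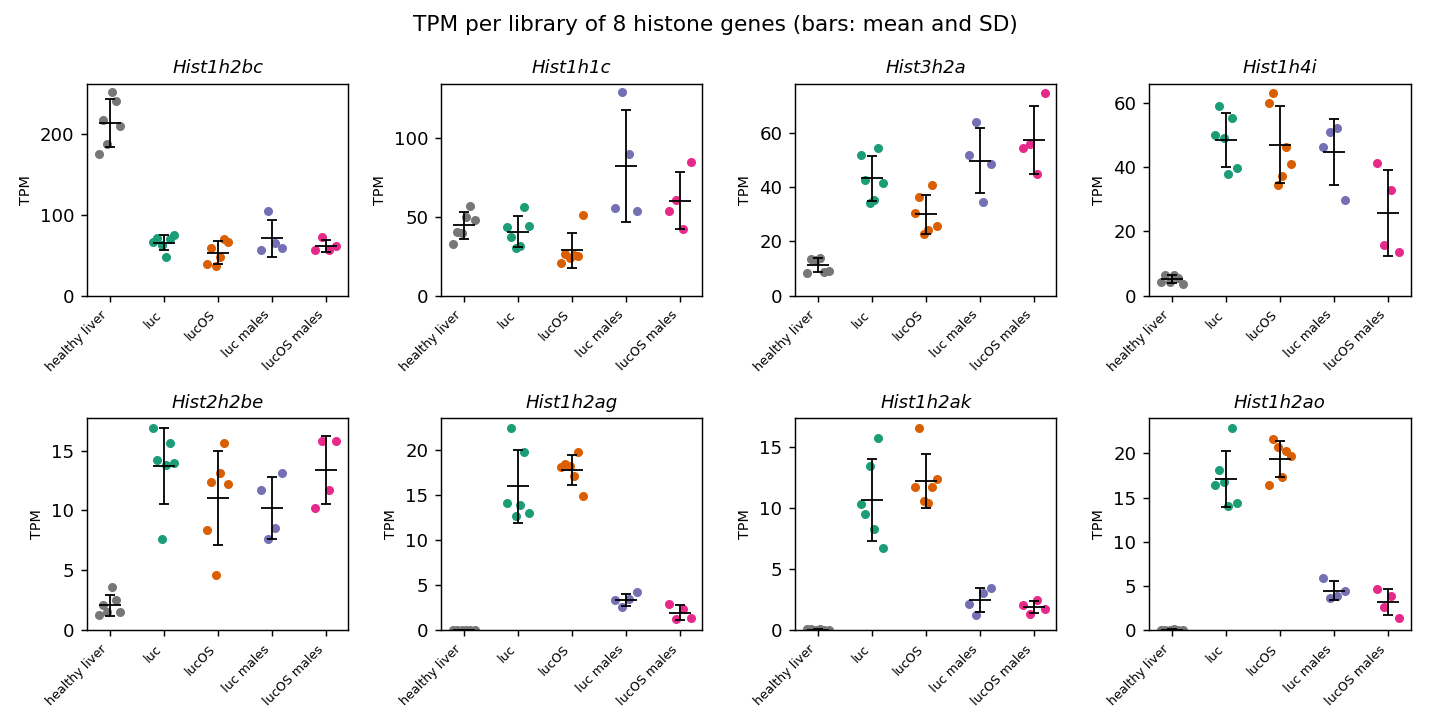
TPM (vertical axes, linear, from 0) of 8 members in each library, by group (horizontal axes), with the mean and SD as black bars. Hist1h2bc sits at 175 to 251 TPM in healthy liver and at 37.0 to 105 TPM in tumours. Hist1h2ag, Hist1h2ak and Hist1h2ao are near 0 in healthy liver and lower in the male tumours than in the other tumours.

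Of the 19 H2B genes, 11 were tested, and the 10 other than Hist1h2bc were higher, from 0.45 for Hist1h2bf to 2.07 for Hist2h2be. Among all genes tested, 71.8% were higher and 16.9% lower. Hist2h2be, another member known to give polyadenylated mRNA, was at 1.29 to 3.58 TPM with a median of 1.83 in healthy liver. It was at 7.65 to 16.9 TPM in luc and 4.63 to 15.6 TPM in lucOS tumours. The male luc values were 11.7, 7.58, 8.51 and 13.1 TPM, and the male lucOS values 10.2, 15.8, 11.7 and 15.8 TPM. No tumour overlapped the healthy livers, and Hist2h2be rose by 2.07 (SE 0.19, limma adjusted p = 1.73e-10), the opposite direction to Hist1h2bc. Hist1h2bg (1.29, SE 0.17), Hist3h2ba (1.29, SE 0.29) and Hist1h2bj (1.23, SE 0.15) were next. Under quantile normalization Hist1h2bg and Hist3h2ba lost the call. With no filter, 13 of the 19 H2B genes were called higher against 59.6% of all genes, and Hist1h2ba, Hist1h2bb, Hist1h2bq, Hist1h2br and Hist3h2bb-ps were not called.

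Among H4 genes, 1 gene led. Hist1h4i was at 3.58 to 6.57 TPM with a median of 4.93 in healthy liver, at 38.0 to 59.1 in luc and at 34.4 to 63.1 in lucOS tumours. The male luc values were 46.3, 50.9, 52.4 and 29.9 TPM, and the male lucOS values 41.2, 15.7, 32.8 and 13.6 TPM. All tumours exceeded all healthy livers, and Hist1h4i rose by 2.72 (SE 0.18, limma adjusted p = 4.84e-13). The other H4 genes called higher changed by 0.73 to 0.96, and Hist1h4d, at 0.96, was at -0.20 under quantile normalization. Hist1h4h, the highest H4 gene in healthy liver at 5.53 ± 1.42 TPM (SD, n = 6), fell by 0.48 (SE 0.18, limma adjusted p = 0.0154). Hist1h4c, Hist1h4j, Hist1h4k and Hist2h4 did not pass the threshold.

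H3 genes, and the H1 genes other than Hist1h1c, had low levels. Of 10 H3 genes tested, 8 were higher and 2 lower, against 71.8% and 16.9% of all genes. The 2 lower rows share nearly all reads. Hist1h3c rose the most, by 2.03 (SE 0.21, limma adjusted p = 2.11e-09), from 0.115 ± 0.178 TPM (SD, n = 6) in healthy liver to 4.70 ± 2.15 in luc and 5.34 ± 1.60 in lucOS tumours (n = 6 each). The H3 copies Hist2h3c1 and Hist2h3c2 fell, by 0.42 and 0.43, from 0.943 to 1.83 TPM in healthy liver to 0.191 to 1.32 TPM in tumours for Hist2h3c1. With the 3 AL15 livers as the only healthy ones, 1 member was called lower, Hist1h2bc, in place of 4. Among H1 genes, Hist1h1e (0.91, SE 0.22), Hist1h1d (0.84, SE 0.17), Hist1h1a (0.75, SE 0.14) and Hist1h1b (0.60, SE 0.13) were higher. Each change was below the median of all genes on the log2(TPM + 1) scale, which understates the change of low genes. The healthy means of these H1 genes were 0.46, 0.366, 0.0814 and 0.256 TPM, in that order. All 4 lost the call under quantile normalization, where Hist1h1b, Hist1h1d and Hist1h1e also changed sign. Hist1h1e and Hist1h1b lost it under median ratio scaling too.

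**Figure D3:**
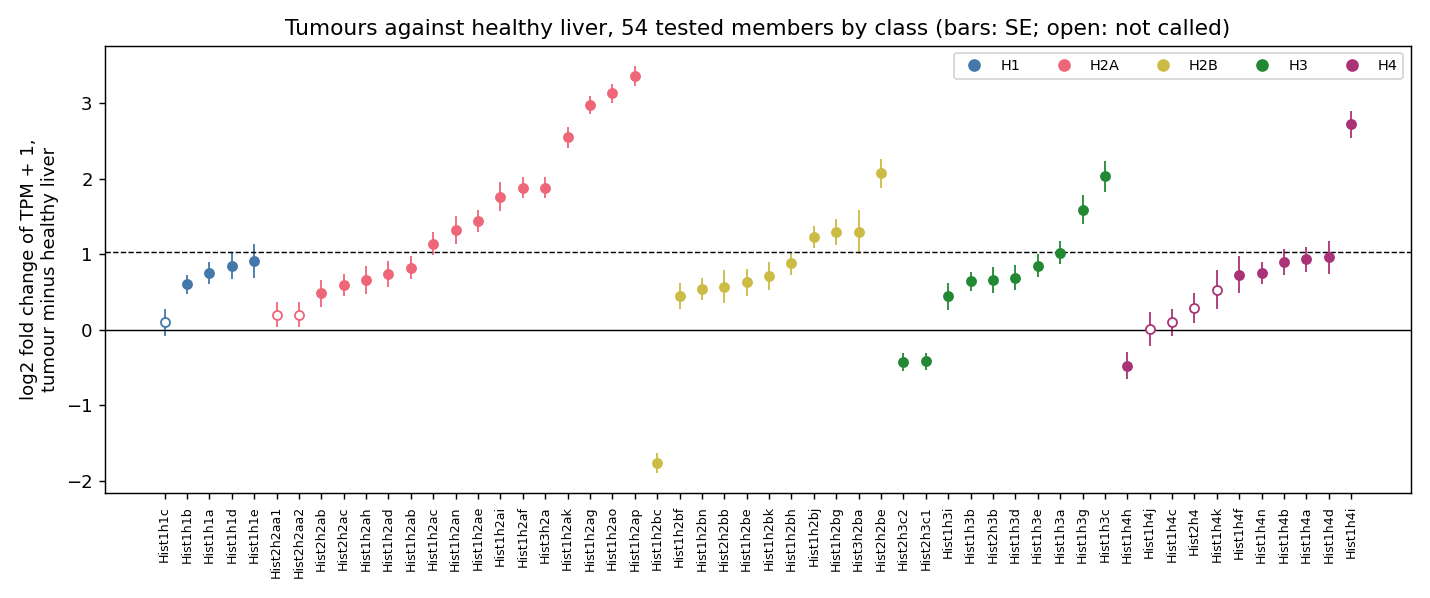
Log2 fold change of TPM + 1, tumour minus healthy liver (vertical axis), of the 54 members tested, grouped and coloured by class and ordered within it, with the SE as bars. Open points were not called, and the dashed line is the median of all genes, 1.03. Hist1h2bc stands alone at -1.77, the H2A genes reach 3.36 and 4 members lie below 0. The point for Hist1h2ag, listed at 0 in healthy liver, rests on the pseudocount.

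Members known mainly from the testis had low levels. Hist1h1t, a linker histone of spermatocytes, reached at most 0.595 TPM in any tumour and 0.109 TPM in healthy liver. Hist1h2aa was at 0 in all healthy livers and at 0 to 0.671 TPM in tumours, and Hist1h2ba did not exceed 0.300 TPM. None of these 3 passed the filter on low values. With no filter, Hist1h2aa (0.24, limma adjusted p = 0.0143) and Hist1h1t (0.19, limma adjusted p = 0.0495) were called higher in tumours.

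H2A and H2B genes often lie head to head with a shared promoter region. There were 13 such pairs with a gap of 163 to 280 bases, and in all 10 pairs with both strands annotated the genes pointed in opposite directions. Levels per length within a pair were often far apart. In the 20 tumours, Hist1h2ag averaged 11.2 TPM and its neighbour Hist1h2bj 1.94 TPM, and Hist1h2ag was the higher in all 20. Hist1h2ak averaged 7.74 TPM against 0.698 TPM for Hist1h2bn, and was also the higher in all 20. Hist1h2ac averaged 1.74 TPM against 62.0 TPM for Hist1h2bc, and was the higher in none. Hist2h2ac averaged 1.72 TPM against 12.2 TPM for Hist2h2be, again the higher in none. In all, the H2A gene had the higher tumour mean in 9 pairs and the H2B gene in 4. The 9 count the pairs of the copies Hist1h2ao and Hist1h2ap separately, and include a pair whose H2B member is the pseudogene Hist3h2bb-ps.

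Genes that act around histone mRNA and histone protein are set beside the 71.8% of all genes called higher in tumours and the median of 1.03 over all genes. All 23 genes of histone mRNA synthesis and decay were higher, with a median log2 fold change of 1.71. Slbp, the stem-loop binding protein, rose from 15.4 ± 2.26 TPM (SD, n = 6) in healthy liver to 48.1 ± 3.44 in luc and 51.9 ± 2.46 in lucOS tumours (log2 fold change 1.58, SE 0.10). Npat, the coactivator of histone gene clusters, rose by 2.11 (SE 0.07) and Casp8ap2 (FLASH), which acts in histone pre-mRNA processing, by 1.75 (SE 0.10). E2f1 (2.72, SE 0.16) led this list. All 24 histone chaperones were higher, with a median of 2.52, Chaf1a (3.86, SE 0.16) and Asf1b (3.81, SE 0.21) among them. All 11 histone genes expressed outside S phase were also higher, with a median of 2.07. H2afz, the variant H2A.Z, was at 91.0 ± 11.6 TPM in healthy liver and 901 ± 63.7 in luc tumours (n = 6 each). It was above every member in luc tumours, but below Hist1h2bc, with a mean of 213 TPM, in healthy liver. H1fx rose by 5.74 (SE 0.20), H2afx by 3.46 (SE 0.16), H3f3b by 2.07 (SE 0.09) and H1f0 by 0.73 (SE 0.18).

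DNA replication and mitosis genes had larger median changes than the members on the log2(TPM + 1) scale, which understates the change of low genes. Of 34 replication genes, 31 were higher and 2 lower, with a median of 3.22. Mcm5, a helicase subunit, rose by 4.68 (SE 0.19), Pcna by 2.80 (SE 0.13) and Rrm2 by 2.53 (SE 0.25). All 20 mitosis genes were higher, with a median of 4.82, Top2a (5.93, SE 0.17) and Mki67 (5.31, SE 0.17) among them. Of 5 tested RNAs without a poly(A) tail from other families, 4 were higher, with a median of 1.19. Under median ratio scaling the list medians were 0.60 for histone mRNA synthesis and decay, 1.34 for chaperones, 0.78 for the other histone genes, 2.25 for replication and 3.97 for mitosis. Under that scaling 4, 3, 1, 4 and 0 genes of these lists were called lower.

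The second comparison asked whether the antigen construct mattered. No member was called between lucOS and luc tumours among 52 tested, and 0 of 15453 genes were (0.0%). Unadjusted, 4 members had p under 0.05 in limma, 1 higher and 3 lower in lucOS, against 2.49% of all genes. Hist3h2a was lower by 0.52 (95% interval -0.86 to -0.18, limma adjusted p = 0.997), and Hist1h1c by 0.51 (-0.98 to -0.04). The interval was -0.53 to 0.40 for Hist1h4i, -0.66 to 0.02 for Hist1h2bc and -0.15 to 0.49 for Hist1h2ag. Array weights, median ratio scaling and quantile normalization gave 0 calls as well, as did the AL51 and the AL54 tumours taken alone and a fit with the animal series as a term.

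Among male tumours, no member was called between lucOS and luc either, against 0.349% of all genes called, 0.259% higher and 0.0906% lower. Unadjusted, 9 members had p under 0.05, all lower in lucOS, and 17.3% of all genes had p under 0.05 in either direction, so the count is at the share of the whole table. Hist1h4i was at 44.9 ± 10.3 TPM in luc and 25.8 ± 13.4 in lucOS male tumours (SD, n = 4 each), a log2 fold change of -0.88 (95% interval -1.45 to -0.31, limma adjusted p = 0.144). Of the 4 male lucOS tumours, those at 15.7 and 13.6 TPM lay below all 4 male luc tumours, and the other values overlapped them. Without male luc replicate 4, 1 member was called lower.

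The third comparison set male tumours beside the tumours of the same construct with no sex in the title. In luc tumours, 3 members were higher and 14 lower in males of 52 tested. Of all genes, 8.94% were called higher and 7.97% lower. In lucOS tumours, 4 were higher and 17 lower, against 15.2% and 9.29% of all genes. The members' median log2 fold change was -0.28 in luc and -0.43 in lucOS, against 0.05 and 0.13 over all genes. The count of lower members was 9 without luc replicate 2 or 5 or without male luc replicate 2 or 4. In lucOS it was 11 without lucOS replicate 4, 10 without male lucOS replicate 2 and 9 without male lucOS replicate 4, and the higher count without those male replicates was 2 and 1.

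A few H2A genes had the largest falls. In males Hist1h2ag was at 3.36, 2.57, 3.43 and 4.23 TPM in luc tumours and at 2.90, 1.24, 2.38 and 1.34 TPM in lucOS tumours. The other tumours were all at 12.7 TPM or above, so the groups did not overlap. Hist1h2ag fell by 1.93 in luc (SE 0.18, limma adjusted p = 1.05e-06) and by 2.70 in lucOS (SE 0.18, limma adjusted p = 6.96e-09).

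Hist1h2ak was at 2.18, 1.29, 3.02 and 3.44 TPM in male luc tumours and at 2.06, 1.31, 2.45 and 1.77 TPM in male lucOS tumours, all below the lowest other tumour at 6.74 TPM. It fell by 1.74 and by 2.19 (SE 0.22 each). Hist1h2ao was at 5.96, 3.61, 3.88 and 4.50 TPM in male luc tumours and at 4.72, 2.65, 3.90 and 1.37 TPM in male lucOS tumours, below the lowest other tumour at 14.1 TPM. It fell by 1.72 and by 2.36 (SE 0.20 each), and its copy Hist1h2ap by 1.76 and by 2.42.

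In 5 of the 68 members every male tumour lay below every other tumour, against 2.1% of all genes. These were Hist1h2ag, Hist1h2ak, Hist1h2ao, Hist1h2ap and Hist2h2ac, all of class H2A, and the copies Hist1h2ao and Hist1h2ap are 1 measurement. No member lay above in all males, against 1.45% of all genes. Hist1h2ag, Hist1h2ak, Hist1h2ao and Hist1h2ap were called lower in all 15 other settings run per comparison at a pseudocount of 1. Other H2A genes that were near 0 in healthy liver had overlapping values. Hist1h2af was at 2.98 ± 0.304 TPM in male luc (SD, n = 4) and 3.12 ± 1.02 in luc tumours (SD, n = 6), and Hist1h2ai at 3.08 ± 1.14 and 2.51 ± 0.955. Hist1h2ag, Hist1h2ak and Hist1h2ao still lay above healthy liver in every male tumour. Hist2h2ac, at 0.187 to 0.556 TPM in male luc and 0.377 to 1.38 TPM in male lucOS tumours, overlapped its healthy range of 0.418 to 0.742 TPM.

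Other members were lower too. Hist2h2ac, of class H2A, was called lower in both constructs (-1.31 and -0.91, SE 0.23 each). Lower in both constructs were also Hist1h2bj (-1.08 and -1.01, SE 0.24 each), Hist1h4b (-1.01 and -1.27, SE 0.27 each), Hist1h4n (-1.03 and -0.86, SE 0.22 each) and Hist1h1d (-0.77 and -0.78, SE 0.25 each). Hist2h2bb (-1.07), Hist1h4d (-1.01), Hist1h3a (-0.98), Hist1h2ad (-0.81) and Hist1h1a (-0.73) passed in luc. Hist2h3b (-1.13), Hist1h1e (-1.11), Hist1h4f (-1.09), Hist1h3c (-1.0), Hist1h4i (-0.95), Hist1h4a (-0.85), Hist1h2bg (-0.72) and Hist1h2bn (-0.67) passed in lucOS. That these passed in 1 construct is no sign of a difference between the constructs. The test of that difference, the interaction of male label and construct, called 0 of 52 members (0.0% of all genes) with 6 at an unadjusted p under 0.05 in limma, against 11.9% of all genes. Hist1h2ag had the smallest p, with a difference of -0.77 (95% interval -1.27 to -0.26, limma adjusted p = 0.335). In luc, Hist2h2bb, Hist1h4d, Hist1h2ad, Hist1h1a and Hist1h1d lost the call without 1 library, each of them without male luc replicate 2 among others. In lucOS, Hist1h1e, Hist1h4a, Hist1h4f, Hist1h4i, Hist1h3c, Hist1h1d, Hist1h2bg and Hist1h2bn lost it without male lucOS replicate 4.

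The members called higher in males were Hist1h1c, Hist2h2aa1, Hist2h2aa2 and, in lucOS, Hist3h2a. Hist1h1c rose by 0.94 in luc (SE 0.27, limma adjusted p = 0.0226) and by 1.06 in lucOS (SE 0.27, limma adjusted p = 0.00926). Its luc call was lost without male luc replicate 2, at 129 TPM, or replicate 3, at 90.2 TPM, and its lucOS call without male lucOS replicate 4, at 84.8 TPM. Hist2h2aa1 was at 3.49, 6.55, 5.31 and 6.17 TPM in male luc tumours and at 0.960 to 2.92 TPM in luc tumours, with no overlap. It was at 3.25, 4.79, 2.02 and 7.38 TPM in male lucOS tumours and at 1.21 to 2.23 TPM in lucOS tumours, and rose by 1.06 and 0.84 (SE 0.25 each). Its copy Hist2h2aa2 moved with it, and the lucOS call of both was lost without male lucOS replicate 2 or 4. Hist3h2a rose by 0.92 in lucOS (SE 0.19, limma adjusted p = 0.00271) and was 0.19 higher in luc (SE 0.19, limma adjusted p = 0.535). Hist1h2bc, at 0.08 and 0.24 (SE 0.19 each), did not pass in either.

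**Figure D4:**
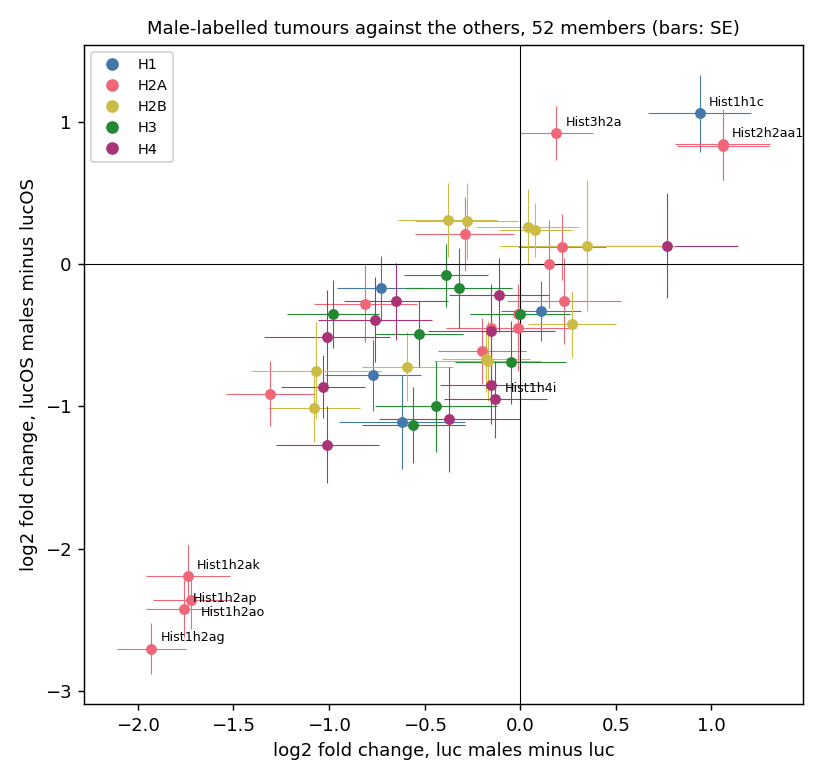
Log2 fold change of TPM + 1 of 52 members between male and other tumours, in luc (horizontal axis) and in lucOS (vertical axis), with the SE as bars and colours for the class. Hist1h2ag, Hist1h2ak, Hist1h2ao and Hist1h2ap lie apart at -1.72 or below on both axes, and Hist1h1c, Hist2h2aa1 and Hist2h2aa2 lie at 0.83 or above on both.

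In luc, 2 of 34 replication genes and 1 of 20 mitosis genes were lower in males, shares no higher than the 7.97% of all genes. In lucOS 17 and 10 were, against 9.29% of all genes. Rrm2 was lower by 1.20 in lucOS (SE 0.30) and 0.58 lower in luc (SE 0.30, limma adjusted p = 0.197). Mcm5, Pcna, Top2a and Mki67 did not pass in either. Slbp stood at 50.6 ± 10.9 TPM in male luc against 48.1 ± 3.44 in luc tumours, and Npat at 12.1 ± 1.74 against 11.9 ± 0.926 (SD, n = 4 and 6). Of the 23 genes of histone mRNA synthesis and decay, 2 were lower in luc males, Ncbp2 and Upf1, a share near that of all genes, and 7 in lucOS males, led by the cyclin genes Ccne1 (-0.97) and Ccne2 (-0.78). Of the 24 chaperones, 1 was higher in luc males (Daxx) and 6 were lower in lucOS males, led by Nasp (-0.87) and Chaf1b (-0.77). Among the 11 other histone genes, H1f0 (1.32, SE 0.25) and H3f3b (0.47, SE 0.12) were higher in luc males, and H1fx (-1.11, SE 0.26), Cenpa (-1.08, SE 0.20) and H2afj (-0.59) lower in lucOS males. Of 5 tested RNAs without a poly(A) tail, Rmrp was lower in luc males (-1.67, SE 0.41) and Rnu73b higher in lucOS males (0.82).

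Markers of some other cell types were called higher in male tumours. Of all genes, 8.94% were called higher in luc males and 15.2% in lucOS males. The 5 B cell markers summed to 11.9 to 126 TPM in male tumours and to 0.588 to 3.10 TPM in the other tumours, and 4 of 5 were called higher in luc males and 5 of 5 in lucOS males. The 4 lung epithelial markers summed to 9.47 to 49.4 TPM in male and 0 to 0.532 TPM in other tumours, and 3 of 3 tested were higher in each. The 6 endothelial markers summed to 160 to 290 TPM in male and 76.2 to 192 TPM in other tumours, with 2 and 4 called higher. The 8 hepatocyte markers summed to 539 to 16678.1 TPM in male and 326 to 6518.6 TPM in other tumours, with 0 and 1 called higher. These hepatocyte shares are no higher than those of all genes, and the endothelial and hepatocyte sums overlapped. In luc and lucOS males, 0 and 3 of 3 general leukocyte markers were called higher. For stromal markers the counts were 1 and 3 of 7, and for macrophage markers 0 and 2 of 6. The only T cell marker tested, 1 of 6 listed, was higher in each. No cholangiocyte, neutrophil, erythroid or germ cell marker tested was called in either. The deposited TPM of the male libraries missed a sum of 1000000 by -3.8 to 256.3, while the others met it. Among B cell markers, Ms4a1 was at 0 in at least 1 luc and 1 lucOS tumour, and the lung markers Sftpc and Scgb1a1 were at 0 in at least 1 of each. The part of any of these in the histone results was not tested.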

How the data were processed

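The deposited table holds TPM per gene, made by the authors from bulk RNA sequencing of 26 libraries. The submitters' processing notes name TopHat2, featureCounts, DESeq2 and the build mm10, without saying which step each served or which release was used. Depth is unknown, so no interval from counts is given. Of 24063 genes, 27 with a name turned into a date and 2 with a shared name were left out of use. Samples were grouped by title. Values were tested as log2(TPM + 1) by limma (version 3.58.1, run in R 4.3.3), with a mean-variance trend and robust variance estimates. A gene entered a fit where 4 or more of its libraries reached 1 TPM, and p-values were adjusted over all genes tested by the Benjamini-Hochberg method at 0.05. Tumours were set against healthy liver in 1 fit of 26 libraries, as the equal-weight mean of 4 tumour groups, and the other comparisons used the 20 tumours. The fit was tested on simulated data. Tables were handled in Python 3.11.15 with pandas 2.3.3. The members and lists were chosen with earlier results of these data known. Genes named were, per class, the highest on average and in healthy liver, up to 20 called members per comparison by size of change, 6 members known from testis or for poly(A) mRNA, chosen genes of the other lists, and up to 2 called genes per list and comparison. Hist1h2ac, Hist1h2an and neighbours of H2A genes were named for their position, some after their values were seen. Alternatives were another pseudocount, no filter, other scalings, array weights, fewer groups and each library left out.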

Additional observations from a re-analysis of the deposited data

Results flagged for a closer look

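Among 65 groups of 4 to 6 libraries looked at, 4 had 1 library far from the others of its group, where chance gives about 1 in 20. Hist1h1c was at 51.1 TPM in lucOS replicate 6, the highest of its group, against a group median of 25.4 TPM. Hist1h2ak was at 16.5 TPM in lucOS replicate 2, the highest of its group, against a median of 11.7 TPM. Hist1h2bc was at 105 TPM in male luc replicate 2, the highest of its group, against a median of 61.3 TPM. Hist2h2be was at 7.65 TPM in luc replicate 3, the lowest of its group, against a median of 14.1 TPM.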

How the results depend on the processing

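No paired analysis was possible because the labels give no replicate numbers that groups share. For tumours against healthy liver, the 43 members higher became 13 under quantile normalization. The 4 lower became 9 under median ratio scaling, 16 under quantile normalization and 1 with the AL15 livers alone. Leaving out 1 library at a time gave 42 to 44 higher and 4 lower. Quantile normalization turned the sign of 18 of the 47 called members, 5 past the threshold, and no other setting turned any. Among the members that the rule named for this comparison, reversed values were -0.20 for Hist1h4d under quantile normalization and, for the uncalled Hist1h1c, -1.17 under median ratio scaling, -0.56 under quantile normalization and -0.40 without the male tumours. For males in luc, the 14 lower became 9 with only those 2 groups in the fit, and leaving out 1 library gave 2 to 4 higher and 9 to 13 lower. For males in lucOS, the 4 higher became 2 under quantile normalization and with only 2 groups, and leaving out 1 library gave 1 to 4 higher and 9 to 18 lower. Between male lucOS and luc tumours, leaving out 1 library gave 0 to 1 lower and 0 higher. Over all settings that left out 1 library, 1 of 47 calls was lost against healthy liver, 6 of 17 in luc males and 11 of 21 in lucOS males, and none reversed. For every result above the cause was not tested. TPM without counts leaves the error of low members unknown.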
